A study of Capra hircus with 2 samples.

Results

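The miR-15, miR-16 and miR-195 family is a set of related microRNAs (miRNAs), short RNAs that pair with messenger RNAs and repress them. Its members were taken by name as miR-15a, miR-15b, miR-16, miR-16a, miR-16b, miR-195 and miR-497, without species prefix or copy number and with the 5p and 3p arms of each hairpin kept apart. These names covered 13 of the 1808 miRNA names listed in goat testicular cells, and 6 of the 298 names with at least 100 reads over the libraries. An entry that the authors left unnamed overlaps the miR-16a hairpin and carries the same seed, so totals are given with and without it.

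The cells came from 3 testes of 3 Saanen dairy goats aged 5 months, were freed with enzymes and were plated overnight to remove cells that attach. Unattached cells were separated with magnetic beads against CD49f (integrin alpha-6), which marks spermatogonial stem cells and is also carried by Sertoli, endothelial and basal epithelial cells. The CD49f-positive and the CD49f-negative cells, of the same strain and age, gave 1 small RNA library each. The series text speaks of triplicates, and whether animals were pooled is not stated, so replicate error is unknown and p-values are not reported.

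The positive library held 8196507 reads of named miRNAs and the negative library 3064462, which makes the former 2.67 times deeper. Each level below is a share of these reads in its library, also given as reads per 1000000 named miRNA reads (RPM), and a ratio sets the CD49f-positive over the CD49f-negative share, with 0.5 reads added to each count. The 95% intervals are exact binomial (Clopper-Pearson) intervals that cover counting error only, since amplified reads are not independent molecules. Arms with at least 100 reads in all, at least 2-fold apart and with an interval that excluded equal shares were called lower or higher. Markers of germ cells in and after meiosis (miR-34b, miR-34c and miR-449a, 3 of 3 listed) summed to 22524 RPM in the positive and 113686 in the negative library. miR-202, a marker of Sertoli and other gonadal somatic cells, stood at 320 and 823 RPM, the endothelial marker miR-126 at 14349 and 7551, and the smooth muscle markers miR-143 and miR-145 at 225505 and 189428. Markers of red blood cells (3 of 3 listed) summed to 2963 and 3716 RPM, those of white blood cells (4 of 4) to 197 and 248, and those of epithelium (3 of 3) to 30.9 and 91.9, so no list was at 0. The epithelium sum was nearly all miR-200b-3p.

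Members of this family recognise their targets through a common seed, the bases near the 5′ end that pair with the messenger RNA. They are textbook repressors of cyclins of the G1 phase, of their kinases and of the survival factor BCL2, and the locus that encodes miR-15a and miR-16 is often deleted in chronic lymphocytic leukaemia. D-type cyclins, which are among their targets, act in dividing spermatogonia of the testis.

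The sequence that the authors listed for each 5p arm is shown because the family is defined by it and because the naming of the miR-16 reads turns on its last bases. Capitals at bases 2 to 8 mark the seed, and the capital at the end of the unnamed entry at miR-16a marks a base that differs from the genome. Differences from the genome in the miR-15a-5p read (G23T) and in the shared miR-16 read at the miR-16b hairpin (G21A) are not marked. Sequences are written 5′ to 3′ with T for U.
miR-15a-5p: tAGCAGCAcataatggtttgtgt
miR-15b-5p (CD49f-positive): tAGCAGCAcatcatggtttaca
miR-15b-5p (CD49f-negative): tAGCAGCAcatcatggtttac
miR-16a-5p and miR-16b-5p: tAGCAGCAcgtaaatattggag
unnamed entry at miR-16a: tAGCAGCAcgtaaatattggagA
miR-195-5p: tAGCAGCAcagaaatgttgg
unnamed entry at miR-195: tAGCAGCAcagaaatgttggt
miR-497-5p: aGCAGCACactgtggtttgtac

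The listed reads of miR-15a, miR-15b, miR-16a, miR-16b and miR-195 carried AGCAGCA at bases 2 to 8. The listed miR-497-5p read, with 682 copies in the positive and 363 in the negative library, started 1 base after the miRBase reference given beside it. Its bases 2 to 8 therefore read GCAGCAC, against AGCAGCA in the reference. Over all listed entries, AGCAGCA stood at bases 2 to 8 in 13 entries of the positive library with 81510 reads (0.989% of listed reads) and in 15 entries of the negative library with 33976 reads (1.10%). Of these reads, 47.4% and 43.2% were in entries without a miRNA name. As a share of listed reads, with no other scaling, the seed was thus about as frequent in both libraries. A large share of it lay outside the named family. These reads also include miR-424-5p, miR-322-5p and miR-16c-5p and leave out miR-497-5p.

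The members lie in 3 pairs, all on the minus strand. Coordinates are those of the authors' files, whose genome build is not given in the sources used here. miR-16b (chr1:105007953-105008049) and miR-15b (chr1:105008096-105008193) are 46 bases apart. miR-16a (chr12:18444474-18444562) and miR-15a (chr12:18444609-18444703) are also 46 bases apart. miR-195 (chr19:26101669-26101759) and miR-497 (chr19:26101978-26102090) have 218 bases between them. In the RefSeq annotation of the goat assembly ARS1.2, used for names and neighbours only, miR-15b and miR-16b lie inside SMC4, which encodes a condensin subunit. In the same annotation miR-15a and miR-16a lie outside genes next to KCNRG, and miR-195 and miR-497 lie between C19H17orf49 and BCL6B, which encodes a transcriptional repressor.

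The 2 miR-16 hairpins are shown because the read listed for both of them matches only the hairpin on chromosome 12. Capitals mark the stretch where that read was placed.
miR-16a hairpin: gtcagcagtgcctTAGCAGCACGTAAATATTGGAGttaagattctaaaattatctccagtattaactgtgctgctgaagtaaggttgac
miR-16b hairpin: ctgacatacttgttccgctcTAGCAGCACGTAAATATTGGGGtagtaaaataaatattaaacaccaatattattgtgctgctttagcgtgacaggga
Counted from 1 at the 5′ end of the mature miRNA, the listed read differs from the miR-16b hairpin by G21A and from the miR-16a hairpin at no base.

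The named family as a whole took a slightly smaller share of the reads in CD49f-positive cells. It held 38815 reads (0.474% of named miRNA reads, 0.469 to 0.478) in the positive library and 18212 reads (0.594%, 0.586 to 0.603) in the negative library. The share was 1.25-fold lower in positive cells, a log2 ratio of -0.33 (-0.35 to -0.30). This direction rested on the scaling: with the trimmed mean of M-values (TMM) the log2 ratio was 0.12, and with the median of ratios 0.27. These scalings moved every ratio up by 0.45 and 0.60. The median log2 ratio of all 298 measured names was -0.43 on the read total. The difference of the family's summed reads, which are mostly miR-16, was thus smaller than the median difference of single names. The median of the 6 measured family arms, at -0.70, lay farther from equal shares than that of all names.

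In these bulk libraries fewer cells of a type and less RNA per cell cannot be told apart. Among the 6 measured arms, 2 were called lower and 0 higher, where 24.8% of all measured names were called lower and 2.01% higher. With TMM 1 arm was called lower, beside 13.4% of all names lower and 9.06% higher. With the median of ratios 0 were, beside 9.4% lower and 11.4% higher. With TMM factors from all names whatever their reads, a setting added after seeing the data, 0 were too, beside 5.03% lower and 16.4% higher. On the read total the median log2 ratio of the 6 arms was -0.70, and all 6 were below 0, as were 74.8% of all measured names. With TMM the median was -0.26 against 0.02 for all names. Of the 6 arms, 4 were then below 0, beside 49.0% of all measured names, a difference that so few arms cannot establish. Mature miRNAs differ little in length, so levels of different arms are compared without a length correction.

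**Figure D1:**
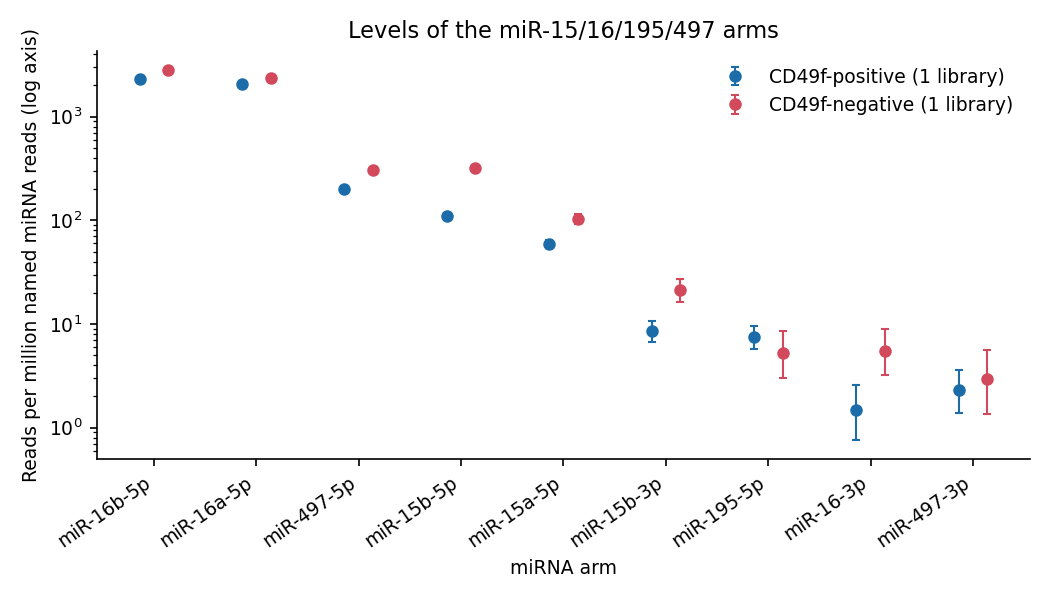
RPM (reads per 1000000 named miRNA reads, log axis) of the 9 family arms with the most reads, in the CD49f-positive and the CD49f-negative library (1 each); bars are 95% exact binomial intervals for counting error. miR-16a-5p and miR-16b-5p lie well above the next arm. Among arms with at least 100 reads, the libraries are farthest apart in relative terms at miR-15b-5p.

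miR-16, the most abundant form of the family, was split over several names. miR-16b-5p had 18893 reads in the positive library (2305 RPM, rank 31 of all names) and 8580.5 in the negative library (2800 RPM, rank 29). Its log2 ratio was -0.28 (-0.32 to -0.24) on the read total and 0.16 with TMM. miR-16a-5p had 16744 reads (2043 RPM, rank 33) and 7293.5 reads (2380 RPM, rank 38) in the negative library. Its log2 ratio was -0.22 (-0.26 to -0.18), and TMM gave 0.22. Together these arms made up 91.8% and 87.2% of the named family reads. Neither reached the 2-fold rule, and both turned from lower to higher under TMM and under the median of ratios.

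The reads behind miR-16a-5p and miR-16b-5p were not independent. The listed 22-base sequence was the same for both names, with 9670 copies in the positive and 4012 in the negative library, and the authors split shared reads between hairpins. Of the reads credited to miR-16a-5p, 96.1% in positive and 87.6% in negative cells had no mismatch. Of those credited to miR-16b-5p, only 31.2% and 25.9% had none, against 67.3% and 64.0% of all named reads. The levels of miR-16a and miR-16b are therefore uncertain on their own, and their sum is the firmer value. Joined, the 5p arms under the 3 miR-16 names held 35639 reads (0.435%) and 15875 reads (0.518%), and their log2 ratio was -0.25 (-0.28 to -0.23), which TMM moved to 0.19.

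An entry on chr12 without a miRNA name, on the minus strand and 263 bases long, held more reads than either name. It spans the miR-16a hairpin, ends at base 18444669 and had 38387 reads in the positive and 14577 in the negative library, which was 84.0% and 77.4% of all unnamed reads. Its listed sequence is the 22-base miR-16a read with an added last base, T23A against the genome, and made up 97.0% and 90.1% of the entry's reads. Of the entry's reads, 2 and 6 had no mismatch. The 23-base sequence was 3.85 times as frequent as the 22-base one in positive cells and 3.27 times in negative cells. Its part of the copies of both sequences was 79.4% (79.0 to 79.7) and 76.6% (76.0 to 77.2). The longer form thus led in both libraries and was slightly more frequent in the positive library, beyond counting error. The longer form itself carries a mismatch. Among all named reads it was those with no mismatch that were more frequent in the positive library, 67.3% against 64.0%. Whether that general difference plays a part here was not tested.

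Adding this entry about doubled the measured level of the family. The miR-16 5p arms then held 74026 reads (0.899%, rank 12) in the positive and 30452 reads (0.989%, rank 9) in the negative library, where the names alone had ranked 22 and 23. The entry made up 51.9% and 47.9% of these reads. The log2 ratio of miR-16 moved from -0.25 to -0.14 (-0.16 to -0.12), and to 0.31 with TMM. Added to the name miR-16-5p, which by itself had 2 reads and 1 read, the entry gave 38389 and 14578 reads, whose log2 ratio was -0.02 (-0.05 to 0.01), or 0.42 (0.40 to 0.45) with TMM. The whole family with the entry held 77202 reads (0.937%) and 32789 reads (1.06%), with a log2 ratio of -0.18 (-0.20 to -0.17) that TMM moved to 0.26. Counting only named entries thus left out the larger part of miR-16 in positive cells and nearly as large a part in negative cells, and on the read total the ratio came closer to equal shares once the entry was counted.

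**Figure D2:**
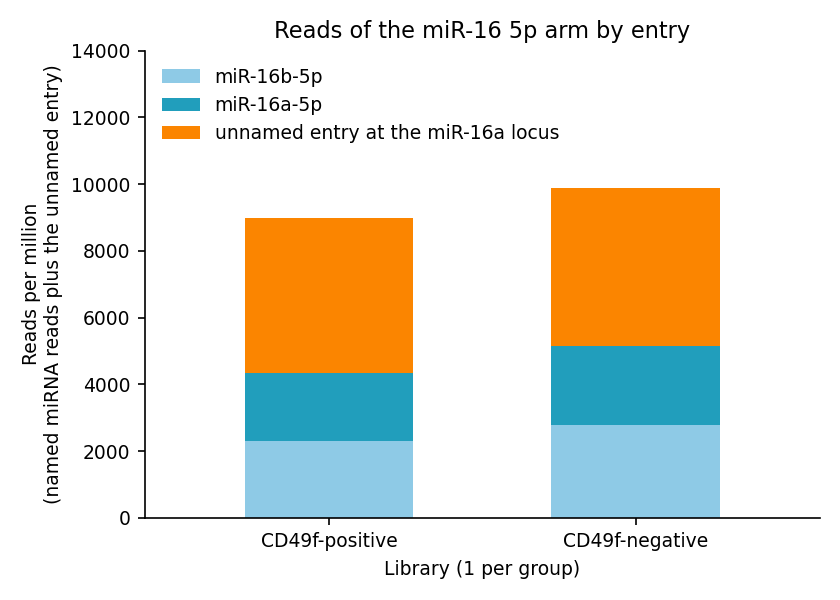
Reads of the miR-16 5p arm per 1000000 reads (named miRNA reads plus the unnamed entry) in each library, stacked by the entry they were listed under. The unnamed entry at the miR-16a locus is the largest part of each bar, and the bars reach 8989 and 9890.

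miR-15b showed the largest difference among the measured arms. miR-15b-5p had 898 reads (110 RPM, rank 120) in the positive and 988 reads (322 RPM, rank 90) in the negative library, more reads in the library of smaller depth. Its share was 2.94-fold lower (2.69 to 3.22) in positive cells, a log2 ratio of -1.56 (-1.69 to -1.43), and it was called lower. With TMM the log2 ratio was -1.11 and the call held, and with the median of ratios it was -0.96 and fell short of 2-fold. On the read total, 31 of the 298 measured names had a lower ratio. Summed markers of several other cell types were also lower in positive cells. Their log2 ratio was -2.34 for germ cells in and after meiosis, -1.57 for epithelium and -1.36 for Sertoli and other gonadal somatic cells. It was -0.33 for red and for white blood cells. Nearly all of the epithelium sum was miR-200b-3p, with 235 and 271 reads (-1.62). The arms of miR-200c and miR-141 had at most 7 reads in a library, so that sum rests on 1 arm. The white blood cell arms with at least 100 reads were mixed and none was called. miR-142-3p (-0.96), miR-142-5p (-0.79) and miR-150-5p (-0.72) were lower, and miR-155-5p (0.59) was higher. Summed markers of endothelium (0.93) and smooth muscle (0.25) were higher on the same scale. Most of the smooth muscle sum is miR-143-3p (0.26). Of its other arms, miR-145-3p (0.56) was higher, and miR-143-5p (-0.76) and miR-145-5p (-1.24) were lower. The part of any of these cells in the miR-15b result was not tested.

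The star arm of the same hairpin lay on the same side. miR-15b-3p had 70 reads (8.54 RPM) in the positive and 65 reads (21.2 RPM) in the negative library, a log2 ratio of -1.31 (-1.82 to -0.80). It was called lower on the read total, and was not called with TMM (-0.87). The ratio of the 5p to the 3p arm did not differ between libraries beyond counting error, with a difference of the log2 ratios of -0.24 (-0.77 to 0.28). Restricted to reads with no mismatch, miR-15b-3p had 46 and 30 reads and fell under the minimum of 100.

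miR-15a, the counterpart of miR-15b in the chromosome 12 pair, was rarer. miR-15a-5p had 484 reads (59.0 RPM) in the positive and 313 reads (102 RPM) in the negative library, and its log2 ratio of -0.79 (-0.999 to -0.58), or -0.35 with TMM, missed the 2-fold rule. The listed read ended in a base that differs from the genome (G23T), and 64.0% and 54.6% of the arm's reads had no mismatch. The log2 ratio of miR-15b-5p lay below that of miR-15a-5p, with a difference of -0.77 (-1.02 to -0.52), which does not depend on the scaling. The order of these names was the same in both libraries, with miR-15b above miR-15a.

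Neighbouring hairpins did not keep their proportions. For each miR-15b-5p read there were 21.0 miR-16b-5p reads in positive and 8.68 in negative cells, a log2 difference of -1.28 (-1.41 to -1.14) for miR-15b over miR-16b. For each miR-15a-5p read there were 34.6 miR-16a-5p reads in positive and 23.3 in negative cells, a log2 difference of -0.57 (-0.78 to -0.36) for miR-15a over miR-16a. With the unnamed chr12 entry added to miR-16a these counts were 113.9 and 69.9, and the log2 difference -0.71 (-0.91 to -0.49). In each pair the miR-15 member was thus lower relative to its miR-16 neighbour in positive cells, whatever the scaling, though the miR-16 side rests on the authors' split of shared reads. Without the miR-16 names the family held 3161 and 2320 reads, and their log2 ratio was -0.97 (-1.05 to -0.90), or -0.53 with TMM.

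miR-497 and miR-195, the pair on chromosome 19, differed from each other in level. miR-497-5p had 1626 reads (198 RPM, rank 97) in the positive and 928 reads (303 RPM, rank 95) in the negative library. Its log2 ratio was -0.61 (-0.73 to -0.49), which TMM moved to -0.17 and the median of ratios to -0.01, and it was not called. miR-195-5p had 61 reads (7.44 RPM) and 16 reads (5.22 RPM), under the minimum of 100, with a log2 ratio of 0.48 (-0.30 to 1.41). That interval included equal shares, while those with TMM, 0.92 (0.14 to 1.85), and with the median of ratios, 1.08 (0.30 to 2.00), did not.

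Most miR-195 reads were also outside the name. An unnamed entry around the miR-195 hairpin (chr19:26101602-26101862, minus strand) held 230 and 80 reads, which was 79.0% and 83.3% of the miR-195 5p reads once counted. Its listed sequence extends the miR-195-5p read by 1 base that matches the genome. The miR-195-5p read itself differs from the miRBase reference by A16G. With this entry miR-195-5p counted 291 and 96 reads, and its log2 ratio was 0.18 (-0.16 to 0.53), or 0.62 (0.29 to 0.97) with TMM, so that here too the scaling decided whether the interval included equal shares. Against miR-497-5p, miR-195-5p was relatively higher in positive cells by a log2 difference of 1.09 (0.30 to 2.02) by name and 0.79 (0.43 to 1.16) with the entry.

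The passenger strands were scarce. At the miR-16b hairpin, 0.0635% and 0.163% of reads were from the 3p arm, at miR-497 1.16% and 0.752%, and at miR-15b 7.24% and 6.10%. The miR-195 hairpin stood apart in the negative library, where 14 reads or 13.1% (7.34 to 21.0), the unnamed entry included, came from the 3p arm, against 1 read or 0.350% (0.00885 to 1.93) in positive cells. The authors listed these reads as miR-195a-3p, which the family's names do not include. The other named arms had few reads in either library: miR-497-3p had 19 and 9, miR-16-3p 12 and 17, miR-15a-3p 3 and 1, miR-16a-3p 2 and 0, and miR-16b-3p 1 and 0. A count of 0 among the 3064462 negative reads was taken to lie under a floor of 3 reads. The floor did not replace the count, since ratios used the 0.5 reads added.

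**Figure D3:**
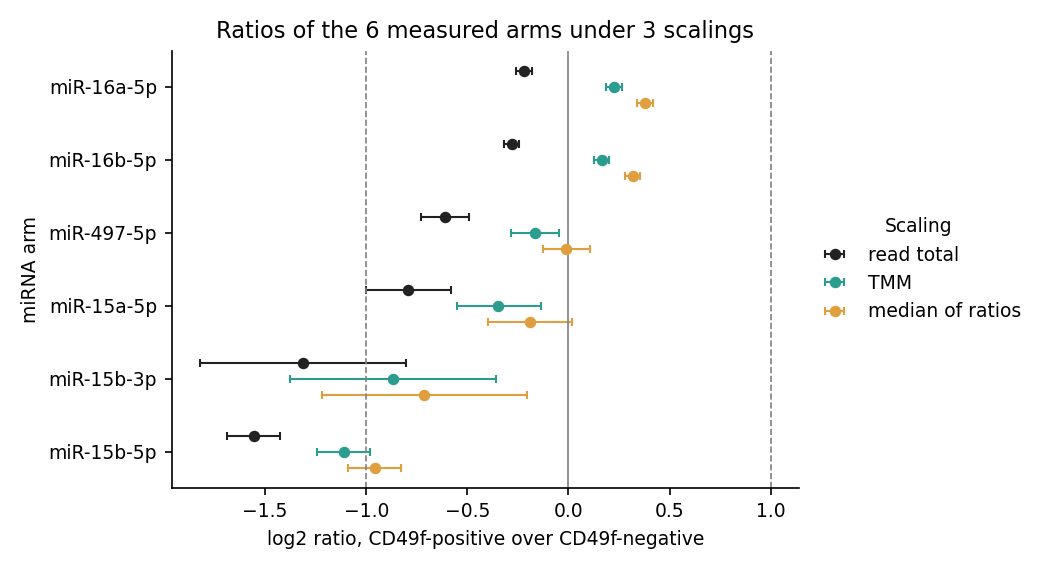
log2 ratios (CD49f-positive over CD49f-negative, 1 library each) of the 6 measured arms under 3 scalings, with 95% intervals for counting error; dashed lines mark 2-fold. On the read total all 6 lie below 0, the miR-16 arms cross to above 0 under TMM and the median of ratios, and miR-15b-5p lies lowest under each of the 3.

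Other miRNAs with a related seed were taken as a list (miR-103, miR-107, miR-424, miR-322, miR-503, miR-646 and miR-6838). The sequences below show how far the seed is shared.
miR-424-5p: cAGCAGCAattcatgttttga
miR-503-5p: tAGCAGCGggaacagtactgcag
miR-103-3p: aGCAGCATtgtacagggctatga
miR-107-3p: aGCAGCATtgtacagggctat
miR-424-5p has the family's seed, miR-503-5p differs in its last seed base, and miR-103-3p and miR-107-3p carry AGCAGCA 1 base earlier, as the listed miR-497-5p read does.

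Of this list 5 arms were measured, and 0 were called lower and 0 higher under the read total (24.8% and 2.01% of all measured names) and under TMM (13.4% and 9.06%), counts that so few arms cannot set apart from those shares. Their median log2 ratio was 0.04 on the read total and 0.48 with TMM, beside -0.43 and 0.02 for all measured names. miR-103-3p had 13336.7 reads in the positive and 4699 in the negative library, a log2 ratio of 0.09. miR-424-5p, from an X-linked cluster, counted 5765 and 2103 reads, and its log2 ratio was 0.04. The log2 ratio of miR-107-3p, from 635 and 227 reads, was 0.06. miR-503-5p, its neighbour miR-424 lying 225 bases away, counted 485 and 286 reads. Its log2 ratio was -0.66 (-0.87 to -0.44), or -0.21 with TMM. For miR-424-3p the reads were 207 and 87 and the log2 ratio -0.17.

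A second list took other miRNAs known to repress G1 cell cycle genes (the let-7 family with miR-98, the miR-34 and miR-449 families, miR-26 and miR-24). Of its 22 measured arms, 7 were called lower and 0 higher on the read total, beside 24.8% and 2.01% of all measured names. With TMM 7 were lower and 3 higher, beside 13.4% and 9.06%. The median log2 ratio of the list was -0.05, or 0.40 with TMM. The 7 lower arms all belong to the miR-34 and miR-449 families, which include the meiotic germ cell markers. The arms with the most reads were miR-34c-5p at a log2 ratio of -2.35, miR-26a-5p at -0.01 and let-7f-5p at 0.62, or -1.91, 0.43 and 1.07 with TMM.

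Among the 54 names outside the family with at least 10000 reads, those whose ratio lay nearest to that of the named family total were miR-30a-5p (-0.33), miR-486-5p (-0.35), a red blood cell miRNA, and miR-186-5p (-0.29). The likeness is in 1 ratio between 2 libraries only.

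**Figure D4:**
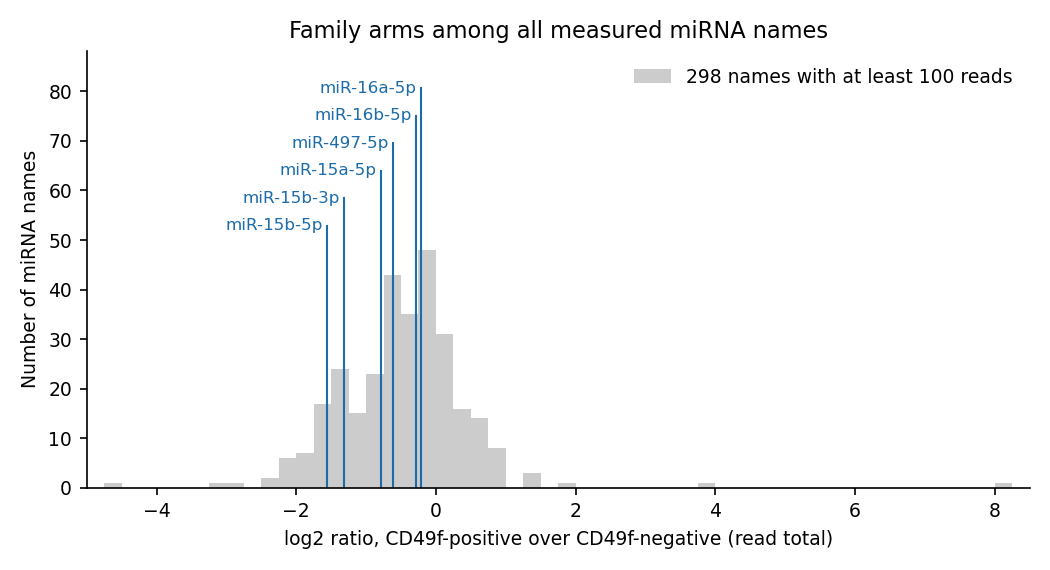
Histogram of the log2 ratios (CD49f-positive over CD49f-negative, read total) of the 298 names with at least 100 reads, with the 6 family arms as labelled vertical lines whose height has no meaning. The miR-16 and miR-497 arms lie in the bulk of the names and the miR-15b arms in its lower shoulder.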

How the data were processed

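Per the labels' protocols, total RNA of each group went into 1 Illumina TruSeq small RNA library. The authors placed reads on miRBase hairpins of mammals, expressed sequences and a goat genome, per the file headers and column notes. Aligner, miRBase release and genome build: not given in the sources used here. The deposited values for each hairpin arm are expected counts, in which a shared read is split between hairpins. Copies of a listed sequence are whole counts, and hairpin GC content a percent, per the file headers.

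Reads were summed per name and arm. Unnamed entries (45707 and 18827 reads) stayed out of totals unless stated. Intervals used expected counts rounded to whole reads. TMM (edgeR 4.0.16) and median-of-ratios factors (DESeq2 1.42.0, R 4.3.3), used for scaling only, came from the 592 names with at least 10 reads. The rest was done in Python 3.11.15 (SciPy 1.17.1, pandas 2.3.3, numpy 2.4.6; figures, matplotlib 3.10.9). The calculation was tested on simulated counts with counting error only. That test held no variation between libraries and no split of shared reads, so it says nothing on either.

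Members, lists, the size rule and the alternatives were chosen with earlier results of these data known. Named were all family arms with a read, related-seed arms with at least 100 reads, at most 3 arms of the G1 list and the 3 nearest ratios. Both unnamed entries and miR-195a-3p are named beyond that rule, the one at miR-195 and miR-195a-3p after their values were seen. RefSeq ARS1.2 matched 6 of 6 hairpins by name.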

Additional observations from a re-analysis of the deposited data

Results flagged for a closer look

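Entries without a miRNA name lay outside the named comparison and held reads with the family seed, above the floor of 3 reads. The entry at the miR-16a hairpin had 38387 reads in CD49f-positive and 14577 in CD49f-negative cells. The entry at the miR-195 hairpin had 230 and 80 reads. These are values of 1 library each.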

How the results depend on the processing

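The log2 ratio of the named family total, -0.33, became 0.12 with TMM, 0.27 with the median of ratios, -0.046 on a total without the 10 most abundant miRNAs, -0.25 with reads that had no mismatch, -0.22 with the most abundant sequence alone and -0.18 with the chr12 entry. Chosen after seeing the data, TMM with the chr12 entry gave 0.26, both unnamed entries with miR-16c and miR-195a -0.18, TMM and the median of ratios without a read minimum 0.49 and 0.51, and TMM over names with at least 100 reads 0.012. The 2 arms called lower became 4 with a 1.5-fold rule, 3 with a minimum of 10 reads (miR-16-3p added), 1 with TMM, with no mismatch, with the most abundant sequence alone, with a minimum of 500 reads and with TMM over at least 100 reads, and 0 with the median of ratios and with either scaling without a read minimum. No setting called an arm higher. The measured arms were 9 with a minimum of 10 reads. They were 5 with a minimum of 500, with no mismatch and with the most abundant sequence alone. Shares of all names called are given above for TMM, the median of ratios and TMM without a read minimum. For the other changed settings they were not calculated, so those counts cannot be set apart from a change across all names. miR-15b-5p stayed below 0 in 14 of 14 settings (-1.75 to -0.72) and kept its call in 11. Several of these hardly touch the arm: added entries, joined miR-16 names, a prior of 5 reads and known hairpins only each gave -1.56. Among changes of scaling, the call held with both TMM settings that had a read minimum and without the 10 most abundant miRNAs. It was lost with the median of ratios (-0.96), and with TMM (-0.73) and the median of ratios (-0.72) without a read minimum. The -1.75 is from the most abundant sequence alone, which had 22 bases in the positive and 21 in the negative library. That value thus compares different sequences. In the same setting, the 22-base read shared by miR-16a-5p and miR-16b-5p stood for each name, at a log2 ratio of -0.15. Its copies (9670 in the positive and 4012 in the negative library) were thus counted under both names in the family value of -0.22. miR-15b-3p kept its call in 7 of 14. Apart from the total without the 10 most abundant miRNAs, those 7 were settings that hardly touch the arm. No paired analysis was possible because each group has 1 library. Counting error limits arms with few reads, and no interval covers variation between goats, sorts or libraries.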
